A study of Mus musculus with 6 samples.

Results

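Transcripts of 10 genes of the type 1 helper T cell (Th1) programme and the interferon gamma pathway were followed in the spleen of mice exposed to lead (Pb) during development. The genes were chosen by name, as regulators, cytokines, receptors and an effector of type 1 immunity, because lead is known to weaken type 1 help. A gene was taken where the platform annotation gave a probe that gene symbol alone. That held for 9 of the 10 genes, with 1 probe each, among 17848 genes so named on the array. They were Tbx21, Stat4, Il12a, Il18, Il12rb1, Il12rb2, Ifngr1, Ifngr2 and Nos2. The expression of Il12b, the gene of the larger chain of interleukin 12 (IL-12), was not analysed here.

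The Pb group was 3 female Balb/c mice aged 21 days, exposed to 0.1 mM Pb from gestation day 8 on, and the control group was 3 female Balb/c mice of the same age. Total RNA of each spleen was read on 1 CodeLink array in 1 colour. For Pb replicate 3, deposited values were nearly unrelated to those of other arrays, probe by probe (r with the controls from 0.0451 to 0.0506 across probes, against 0.937 to 0.94 between controls). Gene values therefore rest on 5 arrays, Pb replicates 1 and 2 and control replicates 1 to 3. Levels are log2 intensities on a scale where the array median lies near 0, after a smooth correction for position on the array. Probes differ in how strongly they bind, so the levels of different genes are not set against each other.

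Markers of the cells in which these genes work were read on the same arrays. As a coarse description, since probes bind differently, the control mean lay above the array median for 16 of 16 measured T cell markers, 12 of 13 B cell markers, 17 of 18 macrophage and dendritic cell markers and 8 of 12 natural killer (NK) cell markers. In bulk RNA, fewer cells of a type and less RNA per cell cannot be told apart. Over all genes 14 of 24464 probes passed an adjusted p of 0.05, 0.0572% of those tested, and all 14 were higher in Pb. Of 21 tested exocrine pancreas markers, 9 were among them. Probes were tested if bright enough in the mean over all 5 arrays. Markers dim in controls, such as Amy2a5 with a control mean of -3.86, were therefore tested only because the Pb arrays were high. That favours the count. Zg16, Klk1, Ptf1a, Bhlha15 and Nr5a2 were too dim to be tested, with log2 differences, Pb minus control, from -0.75 for Ptf1a to 0.89 for Bhlha15. The summed linear intensity of the 26 measured exocrine markers was 217 to 322 in Pb spleens, against 27.6 to 30.9 in control spleens, so both Pb samples carried pancreatic transcripts that the controls carried at far lower levels. Their part in the values below was not tested.

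In type 1 immunity, dendritic cells and macrophages release IL-12 and interleukin 18 (IL-18), which act on T and NK cells. The IL-12 receptor activates STAT4, which together with the transcription factor T-bet, the product of Tbx21, drives production of interferon gamma. Interferon gamma binds a receptor of the IFNGR1 and IFNGR2 chains and, through JAK kinases, switches on genes of antigen presentation and of microbe killing, among them Nos2 in macrophages.

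The start regions of the genes were searched for sequences that the factors of this pathway bind. RefSeq gave promoter windows (build GRCm38.p6, 250 bases before to 50 after a start) for 8 of the 10 genes, 10 windows in all, since Stat4 and Il12a have more than 1 start. The motifs were the gamma activated site TTCNNNGAA, which STAT factors bind and which reads the same on both strands, an interferon regulatory factor pair, which is GAAA, any 2 bases and GAAA again, and the T-box motif TCACACC, the last pair searched on both strands. Only the windows with a match are shown, and the match stands in capitals. No matches overlapped.
Il12rb2, chr6:67376139-67376438, minus strand, with a gamma activated site from position -123 relative to the start: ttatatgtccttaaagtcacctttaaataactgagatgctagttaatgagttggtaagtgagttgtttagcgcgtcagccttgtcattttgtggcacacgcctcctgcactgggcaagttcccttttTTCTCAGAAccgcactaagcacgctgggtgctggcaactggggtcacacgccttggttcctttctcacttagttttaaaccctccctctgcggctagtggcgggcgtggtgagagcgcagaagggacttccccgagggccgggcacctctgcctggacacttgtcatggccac
Stat4, chr1:52007990-52008289, plus strand, the downstream start, with an interferon regulatory factor pair from position -97 relative to the start: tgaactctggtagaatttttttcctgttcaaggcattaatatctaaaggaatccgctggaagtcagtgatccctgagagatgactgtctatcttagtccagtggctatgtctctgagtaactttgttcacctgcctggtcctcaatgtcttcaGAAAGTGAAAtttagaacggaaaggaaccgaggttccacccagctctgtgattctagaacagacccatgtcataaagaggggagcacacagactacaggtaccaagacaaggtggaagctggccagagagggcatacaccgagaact
Among 32851 windows of this length in the table, 8.3% held the gamma activated site, 3.44% the interferon regulatory factor pair and 3.98% the T-box motif. A match describes the letters and is no evidence of binding. The upstream Stat4 window and the windows of Tbx21, Il12a, Il12b, Il18, Ifngr1 and Ifngr2 held none of the 3 motifs.

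The first question was whether any of the genes differed between Pb and control spleens. None did past the threshold: 0 of 9 probes passed an adjusted p of 0.05, where 0.0572% of all tested probes did, and 0 of 9 had an unadjusted p under 0.05, where 7.23% did, 3.93% higher and 3.29% lower (limma). All 9 genes had passed the filter on dim probes, which uses the mean over all 5 arrays. The log2 differences, Pb minus control, ran from -0.17 for Il12a to 0.38 for Stat4. Their median was -0.038, beside 0.028 over all tested probes, and 3 of the 9 lay above 0, where 53.6% of tested probes did. The smallest adjusted p was 0.623 (limma). In 6 of the 9 genes the difference was smaller than the SD of the 3 controls. The share of all tested probes for which that held was not counted, so the 6 are not read as a trait of these genes.

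**Figure D1:**
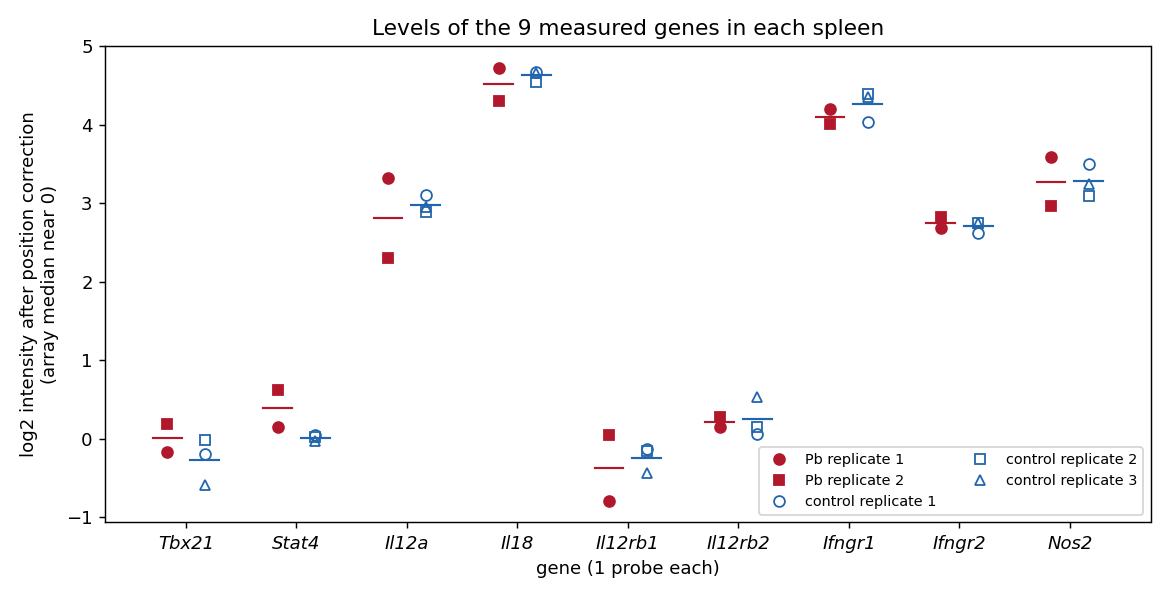
Log2 intensity after position correction (y axis) of the 9 measured genes (x axis), 1 point per array, with Pb replicates 1 and 2 in filled symbols left of control replicates 1 to 3 in open symbols, and bars at the group means. The groups overlap for every gene except Stat4, where Pb replicates 1 and 2 lie at 0.15 and 0.62 and the controls between -0.031 and 0.042.

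Of the transcription factors, Stat4 stood farthest apart and did not pass. Stat4, which carries the IL-12 signal to the nucleus, was at 0.15 and 0.62 in Pb replicates 1 and 2, against 0.042, 0.019 and -0.031 in control replicates 1 to 3. After position correction both Pb spleens lay above every control spleen, and Pb replicate 1 did so by less than the gap between the Pb spleens. Such a separation, upward, was seen for 1 of the 9 genes and for 14.1% of all tested probes. In either direction 26.7% of tested probes had groups that did not overlap. As deposited, before that correction, the groups overlapped for Stat4. Deposited levels were 0.49 and -0.053 in Pb replicates 1 and 2, against 0.18, 0.084 and -0.58 in control replicates 1 to 3. After correction the log2 difference was 0.38 (SE 0.20, 95% confidence interval -0.11 to 0.86, limma adjusted p = 0.623). The 18 probes within 1 array row and 3 array columns of the Stat4 probe leaned the same way, with a median log2 difference of 0.22, and in Pb replicate 2 they lay a median of 0.37 above the control mean. With neighbour medians subtracted as well, the Stat4 difference was 0.15.

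Tbx21, the gene of T-bet, was at -0.16 and 0.19 in Pb replicates 1 and 2, against -0.19, -0.017 and -0.58 in control replicates 1 to 3. Pb replicate 1 lay inside the control range and Pb replicate 2 above it. The log2 difference was 0.28 (SE 0.24, interval -0.30 to 0.86, limma adjusted p = 0.696), and the control SD was 0.29. After correction neither T-bet nor STAT4 transcripts were detectably lower in Pb spleens. The intervals reach down to folds of 0.812 for Tbx21 and 0.926 for Stat4, and do not cover an error of the correction. As deposited, Tbx21 was at 0.28 and -2.42 in Pb replicates 1 and 2, against -0.42, -0.012 and -0.85 in control replicates 1 to 3. Without correction its log2 difference was -0.64 (limma adjusted p = 0.626). T cell markers gave no common shift beside these genes: 8 of 16 had a difference above 0, with a median of -0.016. Both Pb spleens lay above all controls for 3 of the 16 and below for 3, where 14.1% and 12.7% of tested probes did so. The median deviation of these markers from the control mean was 0.060 in Pb replicate 1 and -0.17 in Pb replicate 2. Their summed linear intensity was 159 to 186 in Pb spleens, against 159 to 200 in control spleens.

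Of the cytokines that start the response, Il12a varied most between the Pb arrays. With 1 array per spleen, a difference between animals cannot be told from one between arrays. The position correction moved Il12a in Pb replicate 2 by 1.09. Il12a encodes the smaller chain of IL-12. It was at 3.32 and 2.30 in Pb replicates 1 and 2, against 3.10, 2.89 and 2.95 in control replicates 1 to 3. One Pb spleen lay above all controls and the other below, a gap of 1.03 on the log2 scale where the controls spanned 0.21. The log2 difference was -0.17 (SE 0.32, interval -0.95 to 0.61, limma adjusted p = 0.864), the widest interval of the 9 genes. The probes around it had medians of -0.0048 and -0.011 against the control mean in Pb replicates 1 and 2. The correction was fitted to those probes too, so medians near 0 are partly built in. They do not tell whether the correction suited Il12a.

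Il18, the gene of a cytokine that macrophages make as an inactive precursor, was at 4.72 and 4.30 in Pb replicates 1 and 2, against 4.67, 4.54 and 4.66 in control replicates 1 to 3. The same order held as for Il12a, with Pb replicate 1 just above the controls and Pb replicate 2 below them. For Il18 the log2 difference was -0.11 (SE 0.20, interval -0.59 to 0.37, limma adjusted p = 0.85). Of 17 tested markers of macrophages and dendritic cells, the main sources of both cytokines, 0 passed and 7 had a difference above 0. Their median deviation from the control mean was -0.0025 in Pb replicate 1 and -0.016 in Pb replicate 2, and 10 of the 17 were higher in Pb replicate 2 than in Pb replicate 1. The summed linear intensity of the 18 measured markers ran the other way, 281 in Pb replicate 1 and 208 in Pb replicate 2, against 244 to 269 in control spleens. Lyz2, a lysozyme gene of myeloid cells, made up 157 and 101 of those Pb sums. Marco, a scavenger receptor of marginal zone macrophages, was at 5.16 and 4.35 in Pb replicates 1 and 2 (control mean 5.28), below all controls in both. Of the 17 tested markers, 2 lay below all controls in both Pb spleens and 2 above, where 12.7% and 14.1% of tested probes did so. The part of these markers in the values of Il12a and Il18 was not tested.

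The IL-12 receptor chains overlapped between the groups. Il12rb1, the chain that IL-12 and interleukin 23 share, was at -0.79 and 0.048 in Pb replicates 1 and 2, against -0.13, -0.15 and -0.44 in control replicates 1 to 3. Here Pb replicate 1 was the lowest and Pb replicate 2 the highest of the 5 arrays, at -0.55 and 0.29 against the control mean. The probes around it leaned the same way, with medians of -0.13 and 0.28 against the control mean in Pb replicates 1 and 2. Il12rb1 gave a log2 difference of -0.13 (SE 0.28, interval -0.83 to 0.57, limma adjusted p = 0.886).

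Il12rb2, the signalling chain that marks cells able to respond to IL-12, was at 0.15 and 0.28 in Pb replicates 1 and 2, against 0.066, 0.15 and 0.54 in control replicates 1 to 3. Both Pb spleens lay within the control range. The log2 difference was -0.038 (SE 0.21, interval -0.54 to 0.47, limma adjusted p = 0.959). The gene whose window holds the gamma activated site thus gave one of the smallest differences, which says nothing about binding there.

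The interferon gamma receptor chains did not pass either. Ifngr1, the ligand-binding chain, was at 4.20 and 4.01 in Pb replicates 1 and 2, against 4.03, 4.39 and 4.36 in control replicates 1 to 3. Pb replicate 2 lay just under the lowest control, and the log2 difference was -0.16 (SE 0.19, interval -0.63 to 0.32, limma adjusted p = 0.789). Ifngr2, the chain that brings in JAK2, was at 2.68 and 2.82 in Pb replicates 1 and 2, against 2.62, 2.75 and 2.74 in control replicates 1 to 3. Its log2 difference was 0.045 (SE 0.16, interval -0.36 to 0.45, limma adjusted p = 0.935), the narrowest interval of the 9 genes. For Ifngr2 a fold between 0.78 and 1.36 lies inside that interval.

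Nos2, the inducible nitric oxide synthase of activated macrophages, was at 3.58 and 2.96 in Pb replicates 1 and 2, against 3.49, 3.09 and 3.25 in control replicates 1 to 3. The Pb values lay on either side of the controls, and their mean of 3.27 met the control mean of 3.28. For Nos2 the log2 difference was -0.0052 (SE 0.25, interval -0.62 to 0.61, limma adjusted p = 0.996). Pb replicates 1 and 2 deviated from the control mean by 0.30 and -0.31, and the probes around Nos2 by medians of 0.061 and -0.27.

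**Figure D2:**
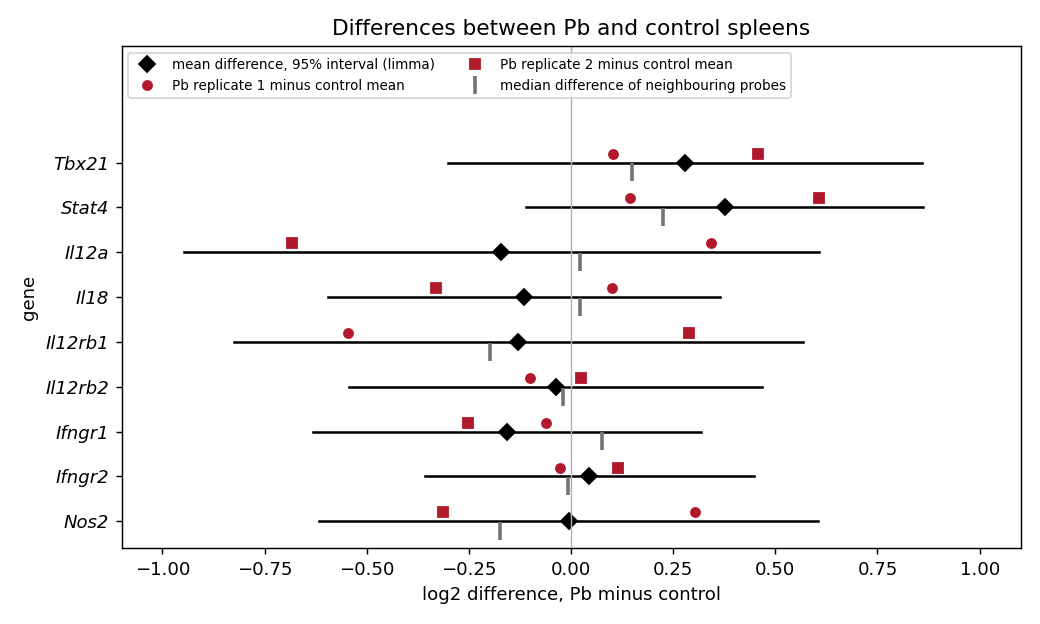
Log2 difference, Pb minus control (x axis), for the 9 genes (y axis): diamonds with bars give the mean difference and its 95% confidence interval from limma, red circles and squares Pb replicates 1 and 2 minus the control mean, and grey ticks the median difference of neighbouring probes. Every bar crosses 0, and the circle and square lie on opposite sides of 0 for 6 of the 9 genes.

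The spread between the Pb arrays was set beside that of all tested probes. Those arrays lay on the same side of the control mean for 3 of the 9 genes, Tbx21, Stat4 and Ifngr1, where 56.4% of tested probes did so. The gap between the Pb arrays was larger than the range of the 3 controls for 6 of the 9 genes, where that held for 54.8% of tested probes. The median size of that gap was 0.43 for the 9 genes and 0.37 for all tested probes. Over the 9 genes the median deviation from the control mean was 0.10 in Pb replicate 1 and 0.026 in Pb replicate 2. The interval bounds of the 9 genes lay between -0.95 and 0.86, so a change of 1 on the log2 scale, which is 2-fold, lies outside each of them. These intervals cover the spread between arrays and not an error of the position correction.

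That correction moved the values of Pb replicate 2 by up to 2.92 on the log2 scale, for Nos2. Nos2 in Pb replicate 2 was at 0.038 as deposited and 2.96 after correction, where the controls lay between 3.24 and 3.62 as deposited. Tbx21 in Pb replicate 2 was at -2.42 as deposited and 0.19 after correction. Il18 and Ifngr1 moved the other way, from deposited values of 6.17 and 5.62 to 4.30 and 4.01. Ifngr2 and Il12rb2 lie in the same array row, 14 array columns apart, and both lay above the control mean in Pb replicate 2 as deposited, by 0.85 and 0.89, and below it in Pb replicate 1, by -0.71 and -0.66. After correction the deviations of that pair in Pb replicate 2 were 0.12 and 0.026. Without correction, the log2 difference of Nos2 was -1.84 and that of Il12a -0.87, with adjusted p of 0.311 or above for all 9 genes (limma).

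**Figure D3:**
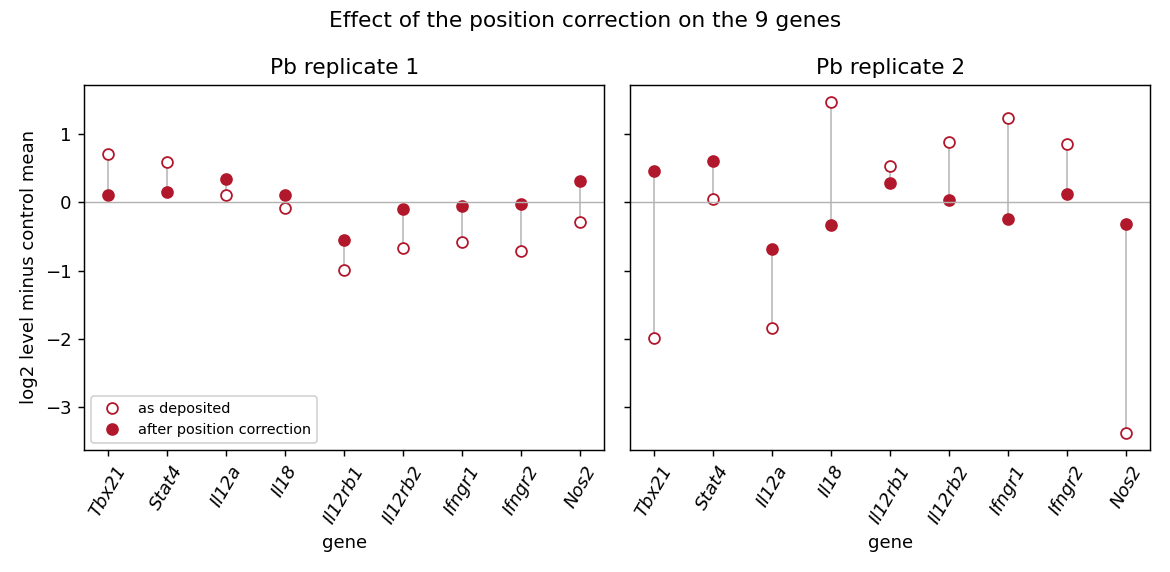
Log2 level minus the control mean (y axis) of the 9 genes (x axis) in Pb replicate 1 (left) and Pb replicate 2 (right), as deposited (open circles) and after position correction (filled circles). In Pb replicate 2 the deposited deviations run from -3.38 for Nos2 to 1.47 for Il18, and the corrected ones from -0.68 for Il12a to 0.61 for Stat4.

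The rest of the pathway was then read from lists of genes around the 9. Of 18 tested genes of IL-12, IL-18 and interferon gamma signalling, 0 rose, 0 fell and 18 did not pass, with a median log2 difference of -0.093 beside 0.028 over all tested probes. Both Pb spleens lay above all controls for 4 of them and below for 5, where 14.1% and 12.7% of tested probes did so. Il18rap, the accessory chain of the IL-18 receptor, was at 0.45 and -0.10 in Pb replicates 1 and 2, against 0.70, 0.79 and 0.81 in control replicates 1 to 3. Its log2 difference of -0.59 (SE 0.21) had an unadjusted p of 0.0336 and a limma adjusted p of 0.621. The other chain of that receptor, Il18r1, differed by -0.14. Casp1, the protease that activates IL-18, and Il18bp, which binds and blocks it, lay below all controls in both Pb spleens with differences of -0.42 and -0.25. In Pb replicate 1 Il18bp was at 3.79, just under the lowest control at 3.82, and its neighbouring probes had a median difference of 0.26. Il23a and Il23r of the same list lay above all controls in both Pb spleens, with differences of 0.28 and 0.27. Casp1, Il18bp, Il23a and Il23r are named after their values were seen.

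Among the kinases and brakes of the pathway the signs were mixed. Jak1, which serves the interferon gamma receptor, was at 7.58 and 7.77 in Pb replicates 1 and 2, against 7.52, 7.11 and 7.26 in control replicates 1 to 3, a difference of 0.38. Jak2, which serves both the IL-12 and the interferon gamma receptor, differed by 0.29. Its deviations from the control mean were -0.18 and 0.76 in Pb replicates 1 and 2. Tyk2, the partner kinase at the IL-12 receptor, differed by -0.30. Tyk2 lay lower in both Pb spleens, 2.43 and 2.64, against 2.90, 2.89 and 2.72 in control replicates 1 to 3. Of the inhibitors, the phosphatase gene Ptpn2 differed by 0.58, Socs3 by -0.38 and Socs1 by -0.042. Their limma adjusted p ran from 0.621 to 0.96. Ifng was not analysed here.

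Of 17 tested genes of the type 1 lymphocyte lineage, 0 rose, 0 fell and 17 did not pass, with a median difference of 0.045. Eomes, a T-box factor of NK and cytotoxic T cells and a relative of T-bet, was at 3.04 and 3.50 in Pb replicates 1 and 2, against 2.92, 2.07 and 2.52 in control replicates 1 to 3. The difference of 0.77 (SE 0.30) had an unadjusted p of 0.0426 and a limma adjusted p of 0.621. These values are of the brighter of 2 Eomes probes, and the other is not given here. Of 11 tested NK cell markers, Eomes among them, 6 had a difference above 0, with a median of 0.017. Runx3, which works with T-bet at the Ifng gene, differed by -0.36, with deviations from the control mean of -0.74 and 0.026 in Pb replicates 1 and 2. Irf1, an interferon gamma induced factor, differed by 0.23, where its neighbouring probes had a median of 0.35. Il15, a growth cytokine of NK cells, and Cxcr6, a chemokine receptor of type 1 cells, differed by -0.40 and -0.38. Limma adjusted p ran from 0.621 to 0.669 over this last set of 4.

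Genes that interferon gamma induces would read out the signal that the receptor passes on. Of 25 tested, 0 rose, 0 fell and 25 did not pass, and 15 had a difference above 0, with a median of 0.092. Both Pb spleens lay above all controls for 7 and below all controls for 4, where 14.1% and 12.7% of tested probes did so. The 7 included Gbp4, a guanylate-binding protein, with a difference of 0.61, Psmb9, a subunit of the immunoproteasome, with 0.54, and Tap1, a peptide transporter of antigen presentation, with 0.36. Tap1 was at 2.14 and 2.15 in Pb replicates 1 and 2, against 1.77, 1.80 and 1.79 in control replicates 1 to 3 (limma adjusted p = 0.621). Psmb8, another immunoproteasome subunit, differed by 0.22. The 4 below all controls were Irf8, Tap2 and the GTPase genes Igtp and Gbp7. Irf8, a transcription factor of myeloid and dendritic cells, differed by -0.53. Its deviations from the control mean were -0.028 and -1.04 in Pb replicates 1 and 2, so Pb replicate 2 carried the difference. Tap2, the partner chain of Tap1, differed by -0.18, Igtp by -0.18 and Gbp7 by -0.066. Gbp5 had the lowest difference, -2.44, which rested on Pb replicate 2 alone, at -5.12 against -0.44 in Pb replicate 1 and -0.62 to -0.11 in the controls. Gbp5 and the 4 genes below all controls are named after their values were seen.

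**Figure D4:**
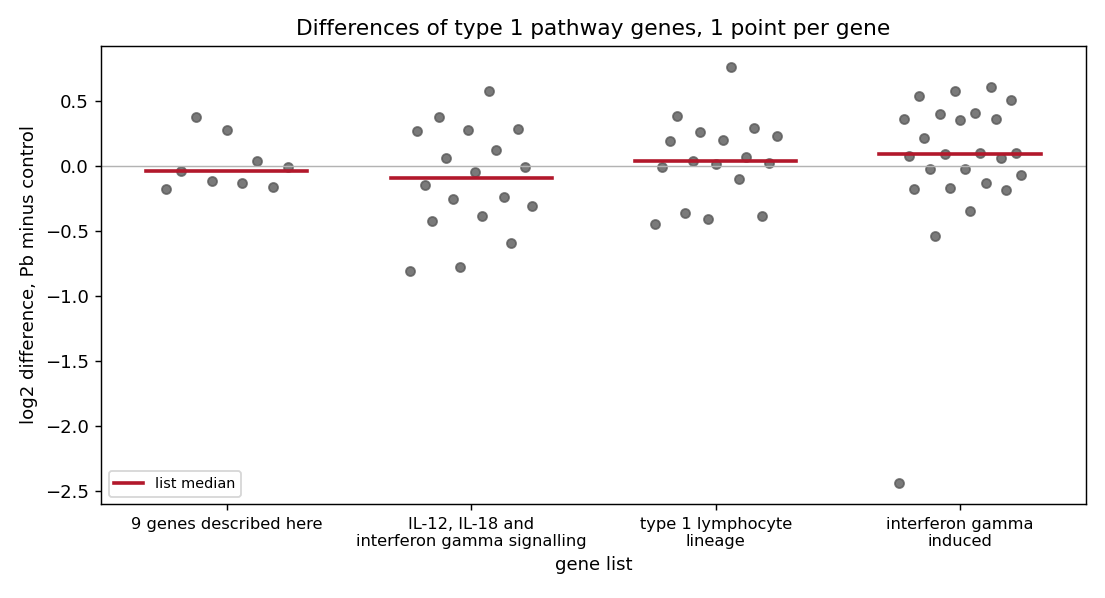
Log2 difference, Pb minus control (y axis), of each tested gene (grey points) in 4 groups (x axis), with the median of each group as a red line. The medians lie at -0.038, -0.093, 0.045 and 0.092, and the single point near the bottom is Gbp5 at -2.44.

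Genes of the opposite arm, type 2 help, were read in the same way. Of 14 tested genes of type 2 helper cells 0 passed, with differences from -0.39 to 0.39 and a median of -0.035. Gata3, the transcription factor that sets type 2 fate, was at 1.83 and 1.59 in Pb replicates 1 and 2, against 2.07, 2.17 and 2.07 in control replicates 1 to 3. The difference of -0.39 (SE 0.17) had an unadjusted p of 0.0624 and a limma adjusted p of 0.621. Il4 lay under the filter on dim probes, at -0.99 and -2.86 in Pb replicates 1 and 2, against -2.05, -1.96 and -0.96 in control replicates 1 to 3. Whether the 9 type 1 genes and the type 2 genes moved apart was not tested, since lists chosen with these results known allow no such test.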

How the data were processed

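Spleen RNA of 6 mice was labelled with Cy5 and read on CodeLink arrays, per the labels. The authors deposited 1 intensity per probe and array on a linear scale; array medians were 0.972 to 0.987, so the values appear to be scaled to a median. The sources used here do not give the scanner, background correction or normalisation. The members, gene lists, arrays and settings were chosen with earlier results of these data known.

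Probes were named where the platform annotation gave a single symbol (21615 of 35587), and the accession of all 9 member probes matched the same gene in RefSeq. The last 8 array rows (638 probes), in which an earlier analysis had found that controls did not follow each other, and Pb replicate 3 were left out. Before log2, intensities below each array's 1st percentile of positive values were set to it. Position effects were estimated per array as a smooth surface over row and level (40 and 6 basis functions) and row and column (40 and 8), fitted with mgcv 1.9.3 to the difference from a reference, the mean over control replicates 1 to 3 and Pb replicate 1, and subtracted, in 2 rounds. Afterwards Pb replicate 2 still had the widest deviations, with a scaled median absolute deviation of 0.59, against 0.31 to 0.39 in the other arrays. Its r with the controls was 0.655 to 0.666 before, over all 35587 probes. Afterwards, without the last 8 array rows, it was 0.925 to 0.927. The gain is partly built in, and the change of probe set has a part in it that was not tested. Probes with a mean log2 value at or above the 30th percentile were tested, 24464 in all, with limma 3.58.1 in R 4.3.3 (lmFit, eBayes, two-sided, Benjamini-Hochberg over all tested probes). The steps were tested on simulated data.

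The labels do not say that the animals come from separate litters, so p-values measure the spread between these samples. The number of arrays limits the precision. The rule for named genes took all members and, from each pathway list, the 3 with the smallest p, the brightest in controls and set kinases, factors and receptors. It also took Il4, Gata3 and, of each marker list, the brightest 2; of the marker genes those beside a result are given. A gene of several probes entered a list by its brightest probe. Same-numbered Pb and control arrays had deviations with r = 0.062 and 0.011, and the labels do not pair them. Alternatives were other array sets, surfaces, filters, scalings, weights and variance models.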

Additional observations from a re-analysis of the deposited data

How the results depend on the processing

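The 9 genes were fitted again under 19 alternatives, 1 of them, the subtraction of neighbour medians, chosen after the data had been seen. All 169 comparisons that could be tested stayed on the same side of the threshold, with 0 calls gained, and 24 uncalled differences changed sign. The smallest adjusted p of any of them was 0.0721, for Il12a without Pb replicate 1, where Pb replicate 2 is the lone Pb array and is assumed to vary like the controls (limma). There Stat4 had 0.0761. At an unadjusted p under 0.05 the counts were 2 without Pb replicate 1 (Stat4 and Il12a), 1 without Pb replicate 2 (Il12rb1) and 2 (Stat4 and Ifngr1) where the surface used array rows only. Over the alternatives with 5 arrays or fewer Stat4 alone kept the sign of its difference, from 0.14 to 0.61. In the 6 arrays as deposited it was -0.48 and the 9 differences ran from -3.46 to 0.39, beside a median of -0.40 over all probes. That fit holds Pb replicate 3, whose values do not follow the probes. Leave-one-out fits kept the position correction of the 5 arrays. Tbx21 and Il12rb1 were not tested with the filter at the 50th percentile. In the 6 arrays as deposited, with no position correction and with no filter, 0 of all tested probes passed. Unchanged calls of the 9 genes say little there.

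The median log2 difference of the 9 genes, -0.038, became -0.49 in the 6 arrays as deposited, 0.069 with no position correction, 0.0050 with the coarser surface, -0.50 where the surface used array rows only, -0.099 with scaling to the 75th percentile, -0.078 with array weights, 0.016 with neighbour medians subtracted, and -0.087 to 0.10 with 1 array left out (0.026 without Pb replicate 1, 0.10 without Pb replicate 2). The 14 probes past the adjusted threshold became 0 in the 6 arrays as deposited, 0 with no position correction, 0 with no filter, 7 with array weights, 22 with a variance trend and robust eBayes, and 4 to 2745 with 1 array left out (2745 for Pb replicate 1, and 5, 4 and 6 for control replicates 1, 2 and 3). The median over all tested probes was itself -0.15 with no position correction and -0.23 with rows only. The cause was not tested. With the replicate block, 11 probes passed and the median of the 9 genes was -0.020. No call of the 9 genes changed with it.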
